A study of Mus musculus with 12 samples.

Results

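The 9 genes described here are the albumin gene family and the genes that regulate it or are regulated with it in the liver: Alb, Afp, Afm and Gc, which encode secreted carrier proteins, the regulators Hnf4a, Cebpa, Zhx2 and Zbtb20, and Gpc3. They were taken by symbol from the 22519 genes that the gene lists of both stages held, out of 31053 listed at embryonic day E16.5 and 22597 at postnatal day 3 (P3). Livers of mice carrying the Nodder allele of Jag1, a Notch ligand, were dissociated and measured cell by cell on a 10x Genomics droplet platform, which counts unique molecular identifiers (UMIs, 1 per captured RNA molecule). The 12 deposited matrices were labelled Jag1+/+, Jag1Ndr/+ or Jag1Ndr/Ndr, with 2 replicates for each genotype and stage, all from crosses of Jag1Ndr/+ parents, so that the allele was present from conception in every cell of the heterozygous and homozygous animals. Digestion included TrypLE at E16.5 and not at P3, and per the labels' protocols the P3 homozygotes were recognised by jaundice rather than by genotype.

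Several matrices shared cells, and this set the groups. At E16.5 the matrix of Jag1+/+ replicate 2 was identical to that of Jag1Ndr/+ replicate 2, with all 23166 barcodes in common, and it was counted once as the shared library. This left 5 libraries at E16.5, given throughout in this order: Jag1+/+ replicate 1, then the shared library, then Jag1Ndr/+ replicate 1, and last the homozygous pair, Jag1Ndr/Ndr replicate 1 and replicate 2. At P3, 6 pairs of matrices shared 53.4% to 100% of the barcodes of the smaller one. The P3 cells were therefore divided into 4 libraries: A, labelled Jag1+/+ replicate 1, B, labelled Jag1+/+ replicate 2, C, which held the 15145 barcodes of Jag1Ndr/Ndr replicate 1 not found in A, and D, labelled Jag1Ndr/+ replicate 1. Barcodes of A and B also appeared under Jag1Ndr/Ndr labels and those of B under a Jag1Ndr/+ label, so the genotype of A and B is unclear and no genotype test was made at P3. Barcodes that had 1000 UMIs or more, of which mitochondrial genes took no more than 15%, numbered 18357 to 29034 per library at E16.5 and 15024 to 21504 at P3, with median UMIs of 5325 to 9256 and 2961 to 6235. The lowest UMI counts differed between the matrices. A limit of 2000 UMIs removed no further barcode from the E16.5 libraries or library C. It left 19800 of 21504 barcodes in A, 15552 of 17553 in B and 13252 of 17036 in D. Nothing in the labels said whether replicates were separate litters, so p-values measure the spread between these libraries.

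Albumin is the main protein of adult plasma, and alpha-fetoprotein, the product of Afp, is its fetal counterpart, made by fetal hepatocytes and yolk sac and shut down after birth. Afamin (Afm) binds vitamin E, and the vitamin D-binding protein (Gc) is the most distant relative in the family. Hnf4a and Cebpa are hepatocyte transcription factors that activate plasma protein genes, whereas Zhx2 and Zbtb20 are zinc finger factors known as repressors of Afp after birth. Gpc3 encodes glypican 3, a cell-surface proteoglycan of fetal liver that is, like Afp, re-expressed in liver cancer and repressed through Zhx2.

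In the mouse genome (GRCm38, GENCODE M21) the family lies on chromosome 5. Alb (ENSMUSG00000029368) spans 90460897 to 90476602, Afp (ENSMUSG00000054932) 90490737 to 90508907 and Afm (ENSMUSG00000029369) 90518932 to 90553543, all on the plus strand. Afp starts 14.1 kb after the end of Alb, and Afm 10.0 kb after the end of Afp. Next comes 5830473C10Rik (ENSMUSG00000070690), a further family member also called Albfm1, 7.56 kb beyond Afm. Gc (ENSMUSG00000035540), on the minus strand at 89417522 to 89457898, lies 1003 kb from Alb. The regulators are scattered: Hnf4a (ENSMUSG00000017950) on chromosome 2 at 163506808 to 163572910, Cebpa (ENSMUSG00000034957) on chromosome 7 at 35119293 to 35121928, Zbtb20 (ENSMUSG00000022708) on chromosome 16 at 42875881 to 43642602, Zhx2 (ENSMUSG00000071757) on chromosome 15 at 57694665 to 57839832, and Gpc3 (ENSMUSG00000055653) on chromosome X at 52272426 to 52613950. Exons of Cebpa, Zbtb20 and Afm overlap exons of opposite-strand genes (Gm45091, Gm9968 and Gm42109). Of these, Gm45091 and Gm9968 were counted in the E16.5 gene list and absent from the P3 list, and the strand setting of the counting is not given in the sources used here. Any effect of this difference on Cebpa and Zbtb20 between stages was not tested.

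The 250 bases before the transcription start of the 4 carrier protein genes are shown because these genes form the albumin family, with Alb, Afp and Afm side by side on the chromosome. They come from RefSeq (GRCm38.p6) and are written 5′ to 3′ on the strand of the gene. Capitals mark the closest match to the binding motif of HNF1, a hepatocyte factor, spelled GTTAAT, then any base, then ATT, and any TATA box, spelled TATAAA.
Alb, chr5:90460620-90460869, plus strand: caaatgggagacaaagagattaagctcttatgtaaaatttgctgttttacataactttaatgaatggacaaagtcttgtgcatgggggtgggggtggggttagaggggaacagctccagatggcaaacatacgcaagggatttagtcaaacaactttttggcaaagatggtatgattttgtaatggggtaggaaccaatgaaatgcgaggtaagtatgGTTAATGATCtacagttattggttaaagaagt
Afp, chr5:90490464-90490713, plus strand: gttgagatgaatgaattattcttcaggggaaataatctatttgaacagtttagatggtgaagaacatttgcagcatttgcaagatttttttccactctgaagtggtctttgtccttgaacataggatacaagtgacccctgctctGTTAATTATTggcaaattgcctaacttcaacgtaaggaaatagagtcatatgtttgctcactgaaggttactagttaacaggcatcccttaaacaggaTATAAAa
Afm, chr5:90518699-90518948, plus strand: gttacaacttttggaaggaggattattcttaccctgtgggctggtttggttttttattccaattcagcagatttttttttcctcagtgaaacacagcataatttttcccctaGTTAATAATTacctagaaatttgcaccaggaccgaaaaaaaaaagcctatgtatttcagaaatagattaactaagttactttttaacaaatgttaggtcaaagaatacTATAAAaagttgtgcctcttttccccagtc
Gc, chr5:89457899-89458148, minus strand: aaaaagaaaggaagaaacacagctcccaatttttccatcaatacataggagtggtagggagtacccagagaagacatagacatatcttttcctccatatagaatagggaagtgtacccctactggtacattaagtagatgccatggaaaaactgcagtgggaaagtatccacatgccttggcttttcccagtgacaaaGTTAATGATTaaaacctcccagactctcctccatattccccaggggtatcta

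Afp, Afm and Gc each held an exact HNF1 match on the gene's strand, at 105 to 96, 138 to 129 and 52 to 43 bases before the start. Across all 32851 promoters of the table, searched on both strands, 0.371% held one. Alb held none, and its closest stretch, 32 to 23 bases before the start, differed by 1 base (T10C, the motif's base first, counted from the motif's 5′ end). All distances are from the RefSeq start. GENCODE places the start of Alb further downstream and that of Afm further upstream, so these distances depend on the start used. Allowing 1 mismatch, 4.92% of all promoters matched. Outside the 4 carrier genes, 1 promoter of Hnf4a (A8G) and that of Zbtb20 (T6C) also came within 1 mismatch, on the opposite strand. TATAAA stood 7 to 2 bases before the RefSeq start of Afp, whose start GENCODE places further downstream, and 30 to 25 bases before that of Afm. It occurred in 12.4% of all promoters. The shorter C/EBP motif, TTNNGNAA, matched in Alb, Afp and Afm, in 5 of the 9 promoters of the 8 members that the table held, and in 36.8% of all promoters. Neither the HNF4 motif CAAAGTCCA nor the FOXA motif TGTTTAC matched in any of those 9 promoters. No promoter of Zhx2 was used. A match describes these letters only, and partly overlapping matches were counted once for each promoter.

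Hepatocyte-like cells were rare in these suspensions, which were dominated by blood-forming cells. Clusters were named from marker genes, and the names may differ from those of the authors. The class held 3823 cells at E16.5 (3.20% to 5.67% of the kept cells of a library) and 1439 at P3 (1.22% to 3.55%), and all 12 hepatocyte markers, among them Apoa1, Ttr and Fabp1, were detected in it in every library. At both stages the class was made of 2 clusters. One had a high UMI count, with 797 cells at E16.5 and 185 at P3 and 55.2% and 35.5% of the UMIs of the class. The other had a low UMI count and much globin RNA, and at P3 was led by Fabp1. Erythroid markers, 11 of 12 detected in every library and the other not in the gene lists, made up 144067 to 336519 counts per 1000000 UMIs (CPM) of the class at E16.5, and 159890 to 287814 CPM at P3. Within the high-UMI cluster the sums ran from 54583 to 101971 CPM before and from 6238 to 20029 CPM after birth, with 10 or 11 detected. Neutrophil markers, all 9 detected, reached 10035 CPM there at E16.5 and 12444 CPM at P3. In the whole class B cell markers summed to 83.1 to 159.9 CPM at E16.5 and 434 to 1034 CPM at P3, with 7 or 8 of 8 detected, and T and NK cell markers to 4.39 to 10.1 CPM and 46.8 to 84.6 CPM, with 3 to 7 of 8. Mesenchymal markers, 7 to 9 of 9 detected, went the other way, from 83.4 to 244 CPM at E16.5 down to 26.8 to 91.4 CPM at P3, with overlapping ranges. Apart from a fit of the whole class without globin genes, the part of these other transcripts in the stage differences was not tested. Single genes outside the members are mostly given for the whole class only. Each stage result of a tested member is given for the whole class and for the high-UMI cluster. That second set was chosen once its values were known. Stage also moved together with the digestion and with the software version and gene list of the files, which cannot be told apart from it. Except in library C, it moved with the lowest UMI count that the matrices held as well.

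RNA of Alb and Afp was also found in cells that should lack it. Cells with an Alb UMI made up 99.5% to 99.9% of the hepatocyte-like cells of a library at E16.5 and 79.1% to 90.4% at P3. The same share in erythroid-like cells, which should lack the gene, ranged from 93.0% to 98.7% in the fetal libraries and from 9.43% to 29.0% in those of P3. Median UMIs per cell were 2762 to 5077 and 2811 to 4207.5 in hepatocyte-like cells and 4999.5 to 9576 and 2637 to 5385 in erythroid-like cells. After every cell was thinned to 1000 UMIs, Alb was seen in 93.7% of hepatocyte-like and 44.3% of erythroid-like cells at E16.5 (means over libraries), and in 64.9% and 5.62% at P3. For Afp the thinned means were 89.7% and 33.5% at E16.5 and 51.3% and 3.00% at P3, against 98.7% and 89.4%, and 68.3% and 11.6%, before thinning. In the high-UMI hepatocyte-like cluster the thinned means were 100% at both stages for Alb, and 100% at E16.5 and 99.0% at P3 for Afp. Alb and Afp were seen in a larger share of erythroid-like cells at E16.5 than at P3, at the same thinned depth.

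Alb was lower after birth in hepatocyte-like cells. In the whole class its level was 35082, 55986, 30937, 29769 and 42817 CPM in the E16.5 libraries (in the order given above) and 9815, 8588, 12933 and 20267 CPM in P3 libraries A to D. All 4 P3 values lay below all 5 E16.5 values, with group means of 38918 ± 10824 CPM (SD, n = 5) and 12901 ± 5241 CPM (SD, n = 4). The log2 fold change, P3 against E16.5, was -1.56 (with an SE of 0.24, adjusted p = 0.000265, the quasi-likelihood test of edgeR, adjusted by Benjamini-Hochberg over all genes tested). Among the high-UMI cells Alb measured 63019, 72597, 55460, 54272 and 64960 CPM against 25127, 22722, 32573 and 32459 CPM. The groups were again apart, and the log2 fold change was -0.94 (with an SE of 0.16, adjusted p = 0.000363, edgeR). Globin genes took 14.0% to 33.3% of the UMIs of the class at E16.5 and 15.8% to 28.5% at P3, and 5.28% to 9.96% and 0.610% to 1.98% of those of the cluster. For the whole class a fit without globin genes was among the 21 alternatives, and Alb was called lower in all 21. Their part in the fold change of the cluster was not tested.

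Afp fell as well. It measured 19900, 40237, 19593, 15949 and 34775 CPM at E16.5 and 5299, 4106, 6113 and 11985 CPM at P3 in the whole class. The shared library and Jag1Ndr/Ndr replicate 2 were the highest at E16.5, library D was the highest at P3, and the stages did not overlap. Its log2 fold change was -1.88 (with an SE of 0.31, adjusted p = 0.000423, edgeR's quasi-likelihood test). In the high-UMI cluster, levels of 35099, 52031, 34677, 28773 and 52478 CPM were followed by 13511, 11430, 15173 and 19240 CPM, a log2 fold change of -1.27 (with an SE of 0.22, adjusted p = 0.000372, edgeR).

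**Figure D1:**
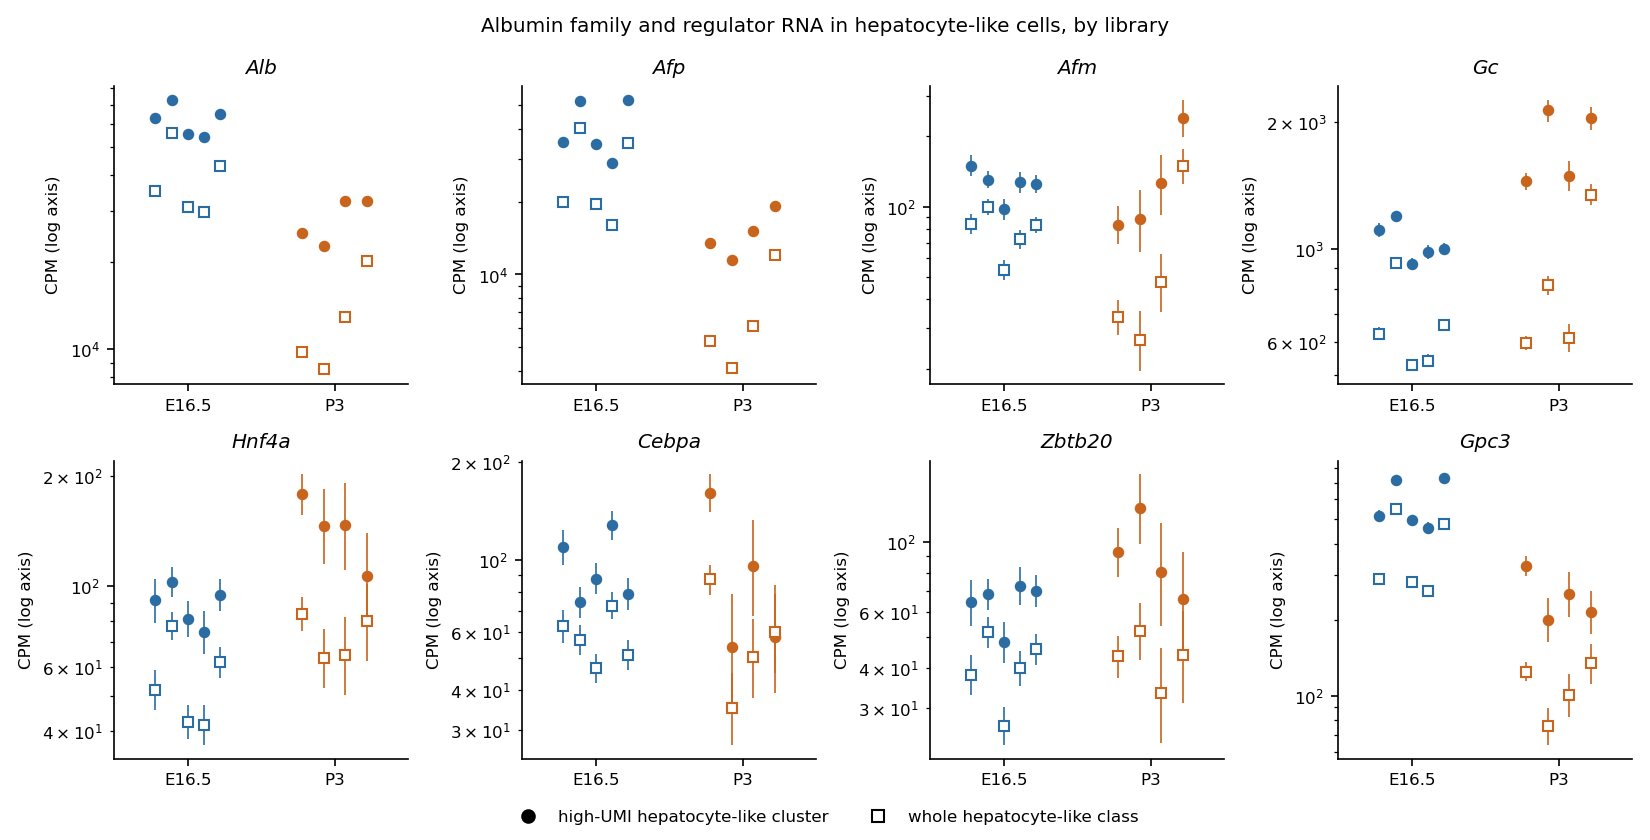
Level of 8 of the 9 genes in each library, in CPM on log axes, at E16.5 (blue, 5 libraries in the order of the text) and P3 (orange, libraries A to D). Filled circles are the high-UMI hepatocyte-like cluster, open squares the whole hepatocyte-like class, and bars exact 95% Poisson intervals, which cover counting error only; Alb, Afp and Gpc3 lie lower at P3 in both sets, and Gc and Hnf4a lie higher at P3 in the high-UMI cluster.

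The balance between Afp and Alb overlapped between the stages. Afp UMIs per Alb UMI in hepatocyte-like cells were 0.567, 0.719, 0.633, 0.536 and 0.812 at E16.5 and 0.540, 0.478, 0.473 and 0.591 at P3. The means were 0.653 ± 0.113 (SD, n = 5) and 0.520 ± 0.0562 (SD, n = 4). The ratio is given as a description with no test. Erythroid-like cells of the same library held Afp and Alb in nearly the same proportion, between 0.915 and 1.18 times the ratio of the hepatocyte-like cells over all 9 libraries. Their ratios were 0.642, 0.722, 0.658, 0.551 and 0.792 at E16.5 and 0.635, 0.438, 0.489 and 0.590 at P3, so the order of the E16.5 libraries was the same in both classes, whereas at P3 library D had the highest ratio in hepatocyte-like and library A in erythroid-like cells.

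**Figure D2:**
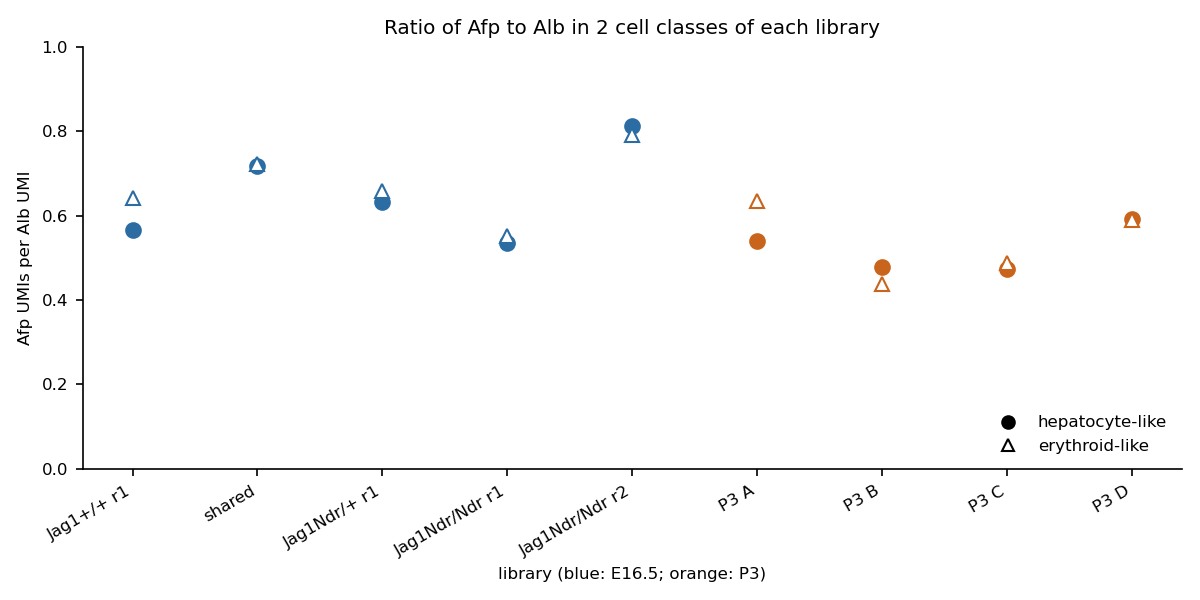
Afp UMIs per Alb UMI (vertical axis) in the hepatocyte-like (filled circles) and erythroid-like cells (open triangles) of each library, E16.5 in blue and P3 in orange. The 2 classes of a library lie close together, and the highest pair belongs to E16.5 Jag1Ndr/Ndr replicate 2, at 0.812 and 0.792.

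Single cells differed more in this balance after birth. Within the high-UMI cluster the median cell had 35.6%, 41.8%, 38.6%, 33.6% and 44.6% of its Alb and Afp UMIs from Afp at E16.5, and 32.4%, 32.4%, 30.3% and 37.7% at P3. The SD between cells of a library was 5.88 to 6.69 percentage points at E16.5 and 9.44 to 13.4 percentage points at P3. Counting error alone gives an SD of 1.27 to 2.00 percentage points at E16.5 and 1.95 to 2.51 at P3, from a median of 1280 to 2451.5 and 445 to 646 Alb and Afp UMIs per cell. Cells under 10% Afp numbered 0 of 797 at E16.5, and 1 of 78, 1 of 23, 1 of 39 and 0 of 45 in libraries A to D. Each of the 185 P3 cells still had Afp, the lowest at 5.39%. Cells of a library are not replicates, and this spread was not tested.

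**Figure D3:**
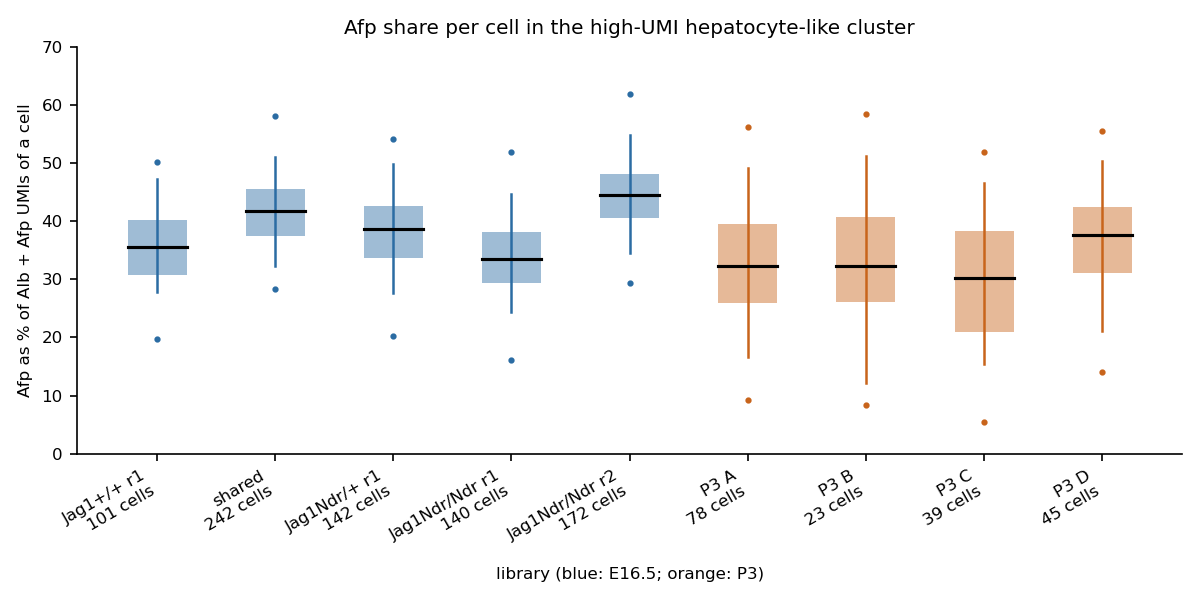
Afp as a percentage of the Alb and Afp UMIs of each cell in the high-UMI hepatocyte-like cluster, by library (E16.5 blue, P3 orange). Boxes span the middle quartiles, black lines are medians, lines run from the 5th to the 95th percentile and dots mark the lowest and highest cell; the P3 libraries reach lower, to 5.39% in library C.

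Gc, unlike Alb and Afp, was not lower at P3 within hepatocyte-like cells. The whole class measured 627, 924, 528, 541 and 657 CPM at E16.5 and 596, 817, 612 and 1345 CPM at P3, with overlapping groups, and the log2 fold change of 0.39 did not pass (with an SE of 0.22, adjusted p = 0.169, edgeR). Among the high-UMI cells Gc rose from 1110, 1196, 918, 982 and 999 CPM to 1446, 2135, 1489 and 2043 CPM. There the groups did not overlap, and the log2 fold change was 0.96 (with an SE of 0.16, adjusted p = 0.000300, edgeR's quasi-likelihood test).

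Afm was sparse and did not pass in either set. Its level was 84.0, 99.7, 53.5, 72.3 and 83.3 CPM at E16.5 and 33.4, 26.8, 47.5 and 149 CPM at P3. Library D, from 129 Afm UMIs, stood above all others and A to C below all E16.5 libraries. The log2 fold change was -0.37 (with an SE of 0.37, adjusted p = 0.456, edgeR), and without library D it was -1.10 and passed (adjusted p = 0.00101, edgeR). In the high-UMI cluster the value was 0.26 (with an SE of 0.26, adjusted p = 0.468, edgeR), of the opposite sign.

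Hnf4a, an activator of plasma protein genes, was called higher at P3 in hepatocyte-like cells. It measured 51.8, 77.7, 42.4, 41.5 and 61.7 CPM at E16.5 and 83.8, 63.6, 64.7 and 79.9 CPM at P3. The groups overlapped through the shared library, and the gene rose with a log2 fold change of 0.46 (with an SE of 0.16, adjusted p = 0.0314, edgeR's quasi-likelihood test). The call held in 12 of the 21 alternatives, over which the log2 fold change ran from 0.26 to 0.90 and the adjusted p from 0.000496 to 0.231. Within the high-UMI cluster Hnf4a measured 91.2, 103, 81.1, 74.6 and 94.7 CPM, then 178, 146, 147 and 106 CPM, without overlap. Its log2 fold change there was 0.90 (with an SE of 0.16, adjusted p = 0.000496, edgeR).

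Cebpa showed no stage difference that passed in hepatocyte-like cells. It measured 62.8, 56.8, 46.6, 72.5 and 51.1 CPM at E16.5 and 87.3, 35.1, 50.4 and 60.2 CPM at P3, with library A highest of all. The log2 fold change was 0.05 (with an SE of 0.24, adjusted p = 0.894, edgeR) and 0.21 in the high-UMI cluster (with an SE of 0.27, adjusted p = 0.570, edgeR). The low-UMI cluster, which was not fitted on its own, had 14.1 ± 5.499 CPM (SD, n = 5, 8.66 to 21.6) at E16.5 and 41.2 ± 18.0 CPM (SD, n = 4, 25.1 to 62.8) at P3, with the higher level at P3 and ranges apart. Globin made up 36.7% to 55.6% and 34.1% to 43.1% of the UMIs of that cluster. The high value of library A was not limited to hepatocyte-like cells. In each of the 9 classes with at least 50 Cebpa UMIs at P3, library A was the highest of the 4. In monocyte-like cells it measured 60.9 CPM against 25.01, 23.8 and 23.1 CPM in B, C and D. The class named dendritic-like, of whose 2 clusters the larger (1151 barcodes, against 914) was led by Cd34 and Hmga2 and had 2 dendritic markers among its 10 leading genes, gave 62.7 against 24.9, 25.1 and 11.9 CPM, and macrophage-like cells 44.2 against 18.7, 22.2 and 23.2 CPM.

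Of the repressors of Afp, Zbtb20 was measurable in hepatocyte-like cells and Zhx2 barely. Zbtb20 measured 38.1, 51.9, 26.3, 39.9 and 45.9 CPM at E16.5 and 43.5, 52.4, 33.3 and 44.0 CPM at P3, fully overlapping (log2 fold change 0.15, SE 0.17, adjusted p = 0.507, edgeR). Among the high-UMI cells it rose from 64.4, 68.3, 48.2, 72.6 and 70.2 CPM to 92.8, 128, 80.2 and 66.3 CPM (log2 fold change 0.69, SE 0.19, adjusted p = 0.00956, edgeR), although library D lay within the E16.5 range. Zhx2 gave 16 UMIs over the 5 E16.5 libraries (1, 5, 3, 2 and 5) and 3 over the 4 P3 libraries (2, 1, 0 and 0) in the whole class. It did not pass the filter on low counts, so it has no test there. A library with 0 counts allows up to 3 UMIs, which is 2.85 CPM in library C and 3.47 CPM in library D. In libraries C and D a Zhx2 level as low as the 0.496 CPM mean at E16.5 could therefore not be told from 0. Library A, with 2 of 4043698 UMIs, and library B, with 1 of 1793397, stood at 0.495 and 0.558 CPM.

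Gpc3 fell with Afp. It measured 291, 552, 282, 261 and 477 CPM at E16.5 and 125, 75.8, 101 and 134 CPM at P3, with the same libraries highest at E16.5 as for Afp and no overlap. The log2 fold change was -1.73 (with an SE of 0.22, adjusted p = 5.74e-05, edgeR's quasi-likelihood test). In the high-UMI cluster levels of 517, 719, 499, 464 and 728 CPM became 327, 200.1, 254 and 215 CPM (log2 fold change -1.04, SE 0.20, adjusted p = 0.000959, edgeR). Mesenchymal-like cells also carry Gpc3, and mesenchymal markers moved with it there, from 142 to 449.6 CPM at E16.5, with 9 of 9 detected, to 18.0 to 135 CPM at P3, with 3 to 8 of 9. Their part in the Gpc3 difference was not tested.

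Counted together, 8 of the 9 genes passed the filter in hepatocyte-like cells, and 4 of these were called, Hnf4a as higher and Alb, Afp and Gpc3 as lower. In the same fit 41.2% of 10694 genes were called, 21.1% higher and 20.1% lower, so the members' 4 of 8 is near the share of all genes. The levels of 3 members (Alb, Afp and Gpc3) did not overlap between stages, as for 29.5% of all genes. Within the high-UMI cluster 6 of 8 were called, with Gc, Hnf4a and Zbtb20 as higher and Alb, Afp and Gpc3 as lower, against 37.5% of 9769 genes, 19% higher and 18.5% lower. There 5 members did not overlap, as did 35.3% of all genes. With plain CPM in place of scaled counts, the median of all genes in that cluster moved by -0.26 (log2). The direction of Cebpa there flips with the scaling, since its mean plain CPM was 95.7 at E16.5 and 92.4 at P3.

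**Figure D4:**
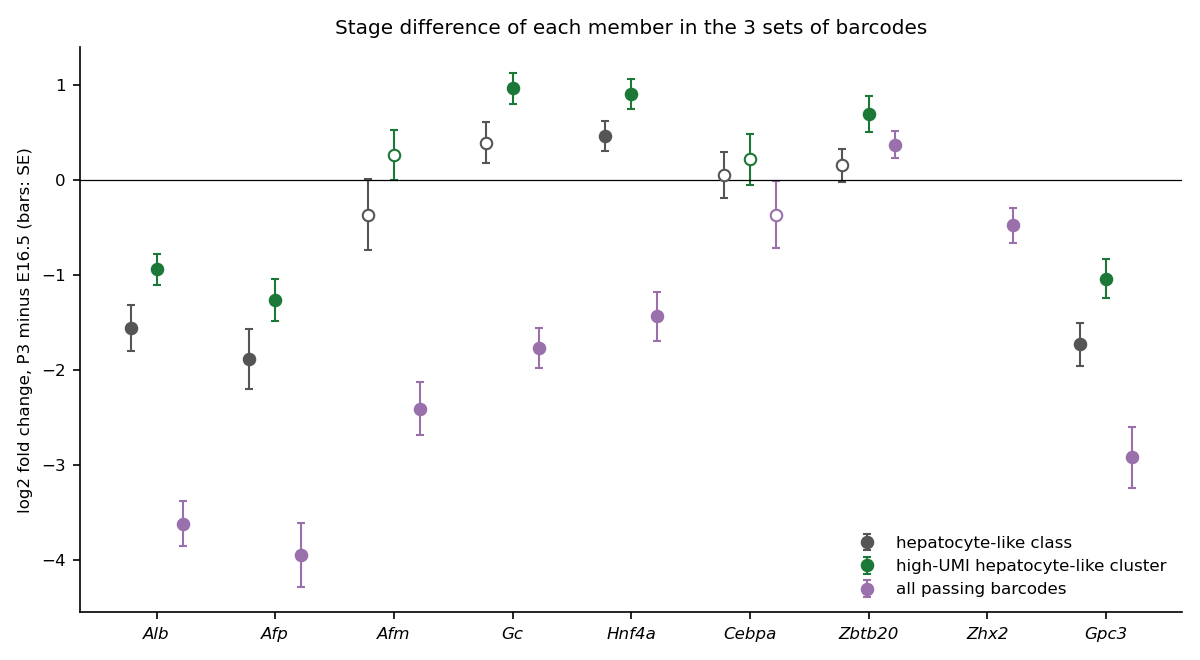
Log2 fold change, P3 minus E16.5, of each gene in the whole hepatocyte-like class (grey), in the high-UMI cluster (green) and in all passing barcodes (purple), with bars for the SE. Filled points have an adjusted p under 0.05 in edgeR's quasi-likelihood test; Alb, Afp and Gpc3 are below 0 in all 3 sets, and Zhx2 was tested in all passing barcodes only.

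Summed over all passing barcodes of a library, the family was much lower at P3. Such sums cannot tell fewer hepatocytes from less RNA per hepatocyte, and the share of hepatocyte-like cells was also lower at P3, with a mean of 3.95% ± 0.996 (SD, n = 5) at E16.5 and 2.16% ± 1.08 (SD, n = 4) at P3. Afp measured 832, 2212, 963, 783 and 1562 CPM at E16.5 and 153, 86.4, 86.0 and 163 CPM at P3, and its log2 fold change was -3.95 (with an SE of 0.33, adjusted p = 1.28e-05, edgeR's quasi-likelihood test). Alb went from 1408, 3072, 1506, 1440 and 1937 CPM to 274, 186, 180.4 and 279 CPM, a log2 fold change of -3.62 (with an SE of 0.24, adjusted p = 3.03e-06, edgeR). Neither gene overlapped between stages.

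Further members fell in these sums. The log2 fold change was -2.92 for Gpc3 (adjusted p = 4.69e-05), -2.41 for Afm (adjusted p = 6.69e-05), -1.77 for Gc (adjusted p = 7.43e-05) and -1.44 for Hnf4a (adjusted p = 0.000863), all by edgeR. In all, 8 of 9 members were called, 7 lower and 1 higher, where edgeR called 54% of 14504 genes, 27.6% higher and 26.4% lower. The levels of 5 members did not overlap between stages, as for 44.1% of all genes. Zbtb20 was the one called higher, at 0.37 (with an SE of 0.14, adjusted p = 0.0480, edgeR), with CPM of 10.3 ± 3.64 (SD, n = 5) and 19.9 ± 3.37 (SD, n = 4). Zhx2 was called lower at -0.48 (with an SE of 0.18, adjusted p = 0.0444, edgeR), while its plain CPM was 1.00 ± 0.321 (SD, n = 5) and 1.08 ± 0.213 (SD, n = 4). Plain CPM moved the median of all genes by 0.41 (log2) in these sums, and the mean plain CPM of Zhx2 was the higher at P3, the opposite direction to the scaled value. The call of Zbtb20 held in 7 of 18 alternatives and that of Zhx2 in 8, with adjusted p of 0.0178 to 0.382 and 0.0118 to 0.262.

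Cebpa did not pass in the sums, at -0.37 (with an SE of 0.35, adjusted p = 0.395, edgeR), with 18.5 CPM in library A and 6.65, 6.79 and 4.92 CPM in B, C and D. Without library A its log2 fold change was -1.01 and passed (adjusted p = 0.000555, edgeR), and without A and B it was -1.05 (adjusted p = 0.00217, edgeR).

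No difference of the family by Jag1 genotype passed the test at E16.5. The 2 Jag1Ndr/Ndr libraries were compared with the other 3, since the shared library carries both remaining labels. On simulated data for this comparison, 30% of 2-fold and 98% of 4-fold changes were recovered in hepatocyte-like cells. Over all passing barcodes these shares were 46% and 98%, so a 2-fold change could well be missed. In hepatocyte-like cells 0 of 11376 genes (0%) were called by edgeR's quasi-likelihood test and 4 by DESeq2, while 217 reached an unadjusted edgeR p under 0.05. Alb averaged 40668 ± 13427 CPM (SD, n = 3) without and 36293 ± 9227 CPM (SD, n = 2) with the homozygous genotype, a log2 fold change of -0.06 (with an SE of 0.26). For Afp these means were 26577 ± 11831 CPM (SD, n = 3) and 25362 ± 13311 CPM (SD, n = 2), with a log2 fold change of 0.03 (with an SE of 0.35). The homozygous pair was itself far apart in Afp, at 15949 and 34775 CPM. Leaving out replicate 1 or replicate 2 of Jag1Ndr/Ndr moved the value to 0.43 or -0.53.

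The other tested members had log2 fold changes of -0.10 (Gc, SE 0.20), 0.09 (Afm, SE 0.19), 0.08 (Gpc3, SE 0.28), -0.05 (Hnf4a, SE 0.20), 0.26 (Cebpa, SE 0.22) and 0.26 (Zbtb20, SE 0.19). Every adjusted p was 1.00 in edgeR. The levels of all 9 genes overlapped between the groups, where 10.6% of all genes did not overlap, a share too small to set 9 genes apart. Among the high-UMI cells 0 of 11059 genes (0%) were likewise called by edgeR, where 241 reached an unadjusted p under 0.05, and 1 member, Zbtb20, did not overlap between the groups, as for 16.3% of all genes. Summed over all passing barcodes, 0 of 16262 genes (0%) were called by edgeR and 5 by DESeq2, while 166 reached an unadjusted edgeR p under 0.05. The 9 members lay between -0.14 and 0.18 on the log2 scale. All 9 overlapped between the groups, where 6.22% of all genes did not, again a share too small to set 9 genes apart.

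At P3 only library C carried a homozygous label alone and only library D a heterozygous one, so there is 1 library on each side and no test. Intervals are exact 95% Poisson intervals for the high-UMI cluster and cover counting error only. Alb was 32573 CPM (31997 to 33157) in C and 32459 CPM (31960 to 32963) in D. Afp was lower in C, at 15173 CPM (14781 to 15573) against 19240 CPM (18857 to 19629). Afm, at 126 CPM (92.3 to 167) against 241 CPM (199.9 to 288), and Gc, at 1489 CPM (1368 to 1618) against 2043 CPM (1919 to 2173), were lower in C too.

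Hnf4a gave 147 CPM (111 to 191) in C and 106 CPM (79.8 to 139) in D, and Gpc3 254 CPM (206 to 311) and 215 CPM (176 to 259.8), with overlapping intervals. Libraries A and B, at 25127 and 22722 CPM for Alb and 13511 and 11430 CPM for Afp, lay below both. A and B also differed from each other, for example at 1446 and 2135 CPM for Gc and 161 and 54.0 CPM for Cebpa. Their genotype is unclear, so this gap cannot serve as a measure of the spread between libraries of the same genotype.

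Across the named cell classes, the 4 carrier genes and Hnf4a were highest in hepatocyte-like cells at both stages, with library ranges apart from the next class. Alb in the next class was 1038 ± 794 CPM (megakaryocyte-like, SD, n = 5) at E16.5 and 184 ± 60.7 CPM (endothelial-like, SD, n = 4) at P3. Classes were clustered on these same cells, so their levels are a description with no test. Zhx2 had its highest mean level at E16.5 in B-like cells, at 4.93 ± 1.43 CPM (SD, n = 5) from 353 UMIs. Endothelial-like cells followed at 2.24 ± 1.62 CPM, with a range that overlapped the ranges of their neighbours, and neutrophil-like cells at 2.09 ± 0.462 CPM, whose range lay below that of B-like cells. Hepatocyte-like cells, at 0.496 ± 0.264 CPM from 16 UMIs, lay below both B-like and neutrophil-like cells with ranges apart. At P3 endothelial-like cells, at 3.73 ± 3.27 CPM (SD, n = 4) from 16 UMIs, and B-like cells, at 3.60 ± 0.915 CPM from 164, overlapped, and the 3 UMIs of hepatocyte-like cells give no place in the order.

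Zbtb20 was broadly present. At E16.5 hepatocyte-like cells, at 40.4 ± 9.56 CPM (SD, n = 5), and mesenchymal-like cells, at 40.2 ± 10.3 CPM, were level, followed within overlapping ranges by endothelial-like cells at 34.9 ± 8.08 CPM and basophil and mast-like cells at 30.7 ± 5.18 CPM. At P3 the mesenchymal-like class was a single cluster of 434 barcodes before doublets were removed, whose 10 leading genes held the collagen genes Col3a1, Col1a1 and Col1a2 together with Ins2, Ins1 and Iapp, hormone genes of the endocrine pancreas. At P3 this class had 121 ± 40.8 CPM (SD, n = 4), endothelial-like cells 95.003 ± 13.2 CPM and macrophage-like cells 72.4 ± 12.5 CPM. The range of the last did not reach that of the whole hepatocyte-like class, at 43.3 ± 7.83 CPM. The high-UMI hepatocyte-like cluster had more, at 64.7 ± 9.70 CPM (SD, n = 5) at E16.5 and 91.9 ± 26.5 CPM (SD, n = 4) at P3. Its P3 range overlapped those of mesenchymal-like, endothelial-like and macrophage-like cells. Erythroid-like cells were lowest at both stages, at 3.00 ± 1.43 and 5.05 ± 0.861 CPM.

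Gpc3 was shared between hepatocyte-like and mesenchymal-like cells. Mesenchymal-like cells had 207 ± 37.8 CPM (SD, n = 5) at E16.5 and 218 ± 42.7 CPM (SD, n = 4) at P3. The P3 value comes from the cluster with Ins2, Ins1 and Iapp among its leading genes. At E16.5 the whole hepatocyte-like class stood higher, at 373 ± 133 CPM, with overlapping ranges. At P3 it stood below mesenchymal-like cells, at 109 ± 26.1 CPM, with ranges apart. Its high-UMI cluster, however, had 249 ± 56.8 CPM at P3, overlapping the mesenchymal-like range of 163 to 267 CPM. Of the classes, basophil and mast-like cells came next with 16.9 ± 3.04 and 38.7 ± 7.66 CPM. That class differed in its make-up, being at E16.5 a cluster of 1615 barcodes with Hmga2, H2afy and Ctla2a beside Mcpt8, Cpa3 and Prss34 among its 10 leading genes, and at P3 a cluster of 303 barcodes without the first 3 among them, so its levels at the stages are given side by side and not compared. Erythroid-like cells had 9.68 ± 2.02 CPM at E16.5 and 0.836 ± 0.754 CPM at P3.

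Cebpa, which also directs myeloid development, was present in myeloid classes at unequal levels. At E16.5 it was highest in hepatocyte-like cells, at 57.9 ± 10.2 CPM (SD, n = 5), with a range apart from the next class, basophil and mast-like cells. Basophil and mast-like cells, from these unlike clusters, had 33.3 ± 8.98 CPM (SD, n = 5) at E16.5 and 125 ± 54.1 CPM (SD, n = 4) at P3, where they ranked above hepatocyte-like cells with overlapping ranges. Monocyte-like cells had 31.6 ± 4.53 and 33.2 ± 18.5 CPM, and macrophage-like cells 21.9 ± 4.31 and 27.1 ± 11.6 CPM. Neutrophil-like cells had 7.42 ± 1.78 and 10.4 ± 4.01 CPM, within overlapping ranges of endothelial-like cells at 9.92 ± 2.31 and 13.5 ± 5.88 CPM.

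**Figure D5:**
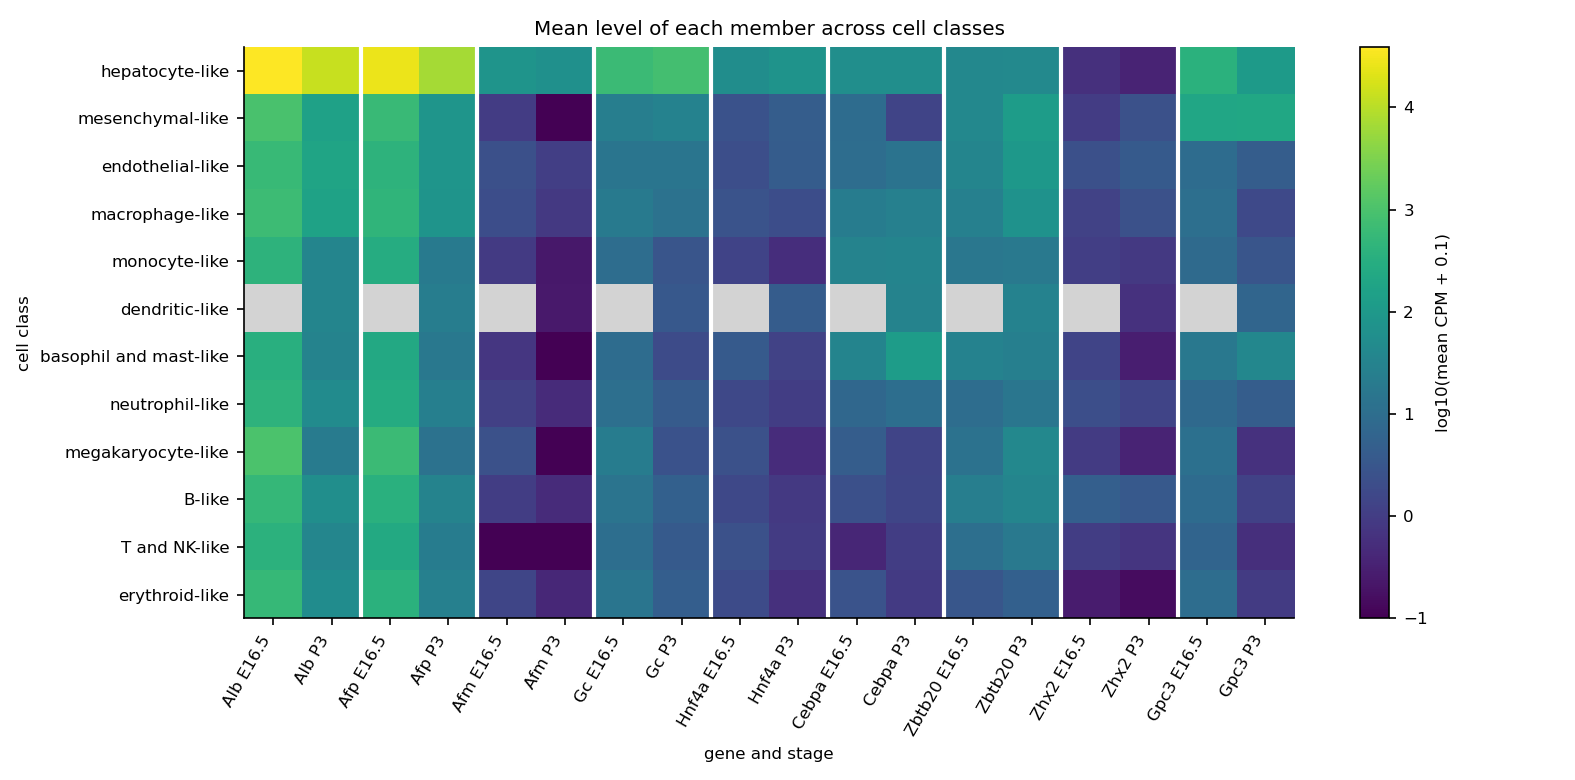
Mean level of each gene over libraries in each cell class at E16.5 and P3, as log10(mean CPM + 0.1); grey marks a class not found at E16.5. Alb, Afp, Afm, Gc and Hnf4a are brightest in hepatocyte-like cells, whereas Zbtb20, Cebpa and Gpc3 are also present in mesenchymal, endothelial or myeloid classes.

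The genes whose pattern was most like that of each member were taken by Pearson's r of log2(CPM + 1) over 23 combinations of class and stage, among 9613 genes with at least 20 CPM in 1 class or more. These points share libraries and background RNA, so r is a description. Alb and Afp were each other's closest gene, with r = 0.998. Alb was followed by Cth and Spp2, Afp by Rbp2 and Cth. Gc was closest to Cfi, Ambp and Serpina1e, all at r of 0.991 to 0.993, and Afm to F11, Cyp2c23 and Kng2. Hnf4a had Pcbd1, which encodes a cofactor of HNF1, at 0.958, then Masp2 and Rtp3. The 3 genes with a broad pattern had partners at lower r: Gkap1 (0.902), Zfp318 and Nfe2l1 for Zbtb20, Igdcc4 (0.910), Tenm3 and Fxyd1 for Gpc3, and Ccl9 (0.945), Tent5a and Coq8b for Cebpa. Zhx2 stayed under 20 CPM in every class.

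Of 16 listed genes of other secreted plasma proteins, most were also hepatocyte markers that named the clusters, Apoa1 and Ahsg among them. Unlike the members, they were not kept out of the clustering, so their levels are not independent of how the cells were picked. In hepatocyte-like cells edgeR called 8 of the 16 higher and 0 lower at P3, and the other 8 did not pass. Of all 10694 genes 21.1% were called higher and 20.1% lower, and the median log2 fold change was 0.54 for the list against -0.01 over all genes tested. They included Hpx, which encodes the heme carrier hemopexin, at 2.00 (with an SE of 0.20, adjusted p = 7.58e-06), Apoa1, of high-density lipoprotein, at 1.46 (with an SE of 0.19, adjusted p = 4.87e-05), Ahsg, for fetuin A, at 1.29 (with an SE of 0.23, adjusted p = 0.000610) and Rbp4, the retinol carrier, at 1.10 (with an SE of 0.22, adjusted p = 0.00141), all by edgeR. In the high-UMI cluster 13 were called higher and 0 lower, with a median of 0.93 against -0.04, where 19% of all genes were called higher and 18.5% lower. Summed over all passing barcodes the direction was the opposite, with 0 called higher and 14 lower and a median of -1.57 against 0.02. There 27.6% of all genes were called higher and 26.4% lower. Among the members tested in both sets, only Gc, Hnf4a and Cebpa changed sign from the whole class to these sums, and Cebpa passed in neither.

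Among 20 liver-enriched transcription factors, 7 were called higher and 2 lower in the whole class, with a median log2 fold change of 0.23. These 9 of 20 are near the 41.2% of all genes called. Within the high-UMI cluster 10 were called higher and 1 lower, where 37.5% of all genes were called. Over all passing barcodes 3 were called higher and 13 lower, with a median of -1.26, where 54% of all genes were called. Nr0b2, which encodes the bile acid-induced corepressor SHP, rose from 0.313 ± 0.144 CPM (SD, n = 5) to 30.4 ± 14.9 CPM (SD, n = 4) with an adjusted p of 9.00e-08 in edgeR. Among the E16.5 libraries alone Nr0b2 did not pass the filter on low counts. It entered the stage test through its P3 counts, so this adjusted p is not independent of the filter. Its E16.5 level rests on 1 to 3 UMIs in each library, 10 in all, against 290 UMIs at P3, so the ratio of the summed CPM, 118, has a wide exact 95% interval of 63.1 to 248, which covers counting error only. Nr1i3, the xenobiotic receptor CAR, rose by 4.84 (with an SE of 0.35, adjusted p = 4.44e-07, edgeR) and Onecut1, or HNF6, by 2.33 (with an SE of 0.44, adjusted p = 0.00101, edgeR). Foxa1 fell, with a log2 fold change of -1.85 (with an SE of 0.52, adjusted p = 0.0120, edgeR), from 217 UMIs in all at E16.5 to 14 at P3, where 1 library had 0. Without library A, Foxa1 measured -1.66 and did not pass (adjusted p = 0.0659, edgeR).

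Of 12 listed symbols of relatives of the members, of which Albfm1 is a second name of 5830473C10Rik and no further gene, 9 were tested, 3 were called higher and 1 lower, and the median was 0.39. That is 4 of 9, near the 41.2% called among all genes. The fifth gene of the albumin cluster, 5830473C10Rik, was called higher, with 2.70 ± 0.693 CPM (SD, n = 5) at E16.5 and 13.1 ± 12.9 CPM (SD, n = 4) at P3, a log2 fold change of 1.94 (with an SE of 0.60, adjusted p = 0.0195, edgeR). This call rests on libraries C and D, at 16.2 and 30.1 CPM, while library A, at 2.23 CPM, lay within the E16.5 range of 1.68 to 3.57 CPM and library B, at 3.90 CPM, just above it. Without library D, 5830473C10Rik measured 1.16 (adjusted p = 0.108, edgeR) and without library C 1.68 (adjusted p = 0.0628, edgeR), and neither passed. Gpc4, a glypican beside Gpc3 on chromosome X, rose by 1.61 (with an SE of 0.29, adjusted p = 0.000718, edgeR), the opposite direction to Gpc3. Zhx3 rose by 1.17 (with an SE of 0.21, adjusted p = 0.000631, edgeR), and Cebpb had a log2 fold change of -1.15 (with an SE of 0.36, adjusted p = 0.0202, edgeR). Library A, at 54.7 CPM of Cebpb, stood close under the E16.5 range of 55.7 to 70.6 CPM, and libraries B, C and D had 21.2, 8.56 and 12.7 CPM. Without library A the value of Cebpb was -2.06 (adjusted p = 6.92e-05, edgeR), and without library B it was -1.03 and did not pass (adjusted p = 0.0657, edgeR). Without the homozygous libraries the calls of 5830473C10Rik, Cebpb and Foxa1 were also lost (adjusted p = 0.115, 0.0770 and 0.0812, edgeR). Of 7 other genes linked to Zhx2, 2 were tested between stages. Lpl, lipoprotein lipase, was called lower at -0.98 (with an SE of 0.23, adjusted p = 0.00432, edgeR), and in the high-UMI cluster it measured -0.40 and did not pass (with an SE of 0.16, adjusted p = 0.0663, edgeR). The other, Cyp4a12a, is named after its value was seen and measured -2.56 (with an SE of 1.12, adjusted p = 0.0828, edgeR). H19 was not analysed between the stages here.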

How the data were processed

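Single-cell suspensions were sequenced on a 10x Genomics platform, and the authors deposited a matrix of UMI counts per gene and barcode for each of 12 samples. Per the submitters' processing notes Cell Ranger 2.1.1 and the mm10 build were used, whereas the file headers name 10x software 3.1.0 at E16.5 and 3.0.2 at P3. The matrices of the stages list different genes. The counts were used as deposited, with no column of sample values left unused (0).

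The matrices were reduced to 9 libraries by leaving out copies, and barcodes also found in another matrix, as the results describe. Barcodes that had 1000 UMIs or more, with no more than 15% from mitochondrial genes, were kept, doublets called with Scrublet were removed from the classes, and cells were clustered with scanpy 1.11.5 (2000 variable genes, 30 components, 15 neighbours, resolution 1). Clusters were named from marker lists. Counts were summed for each library and class, and for all passing barcodes, and tested with edgeR 4.0.16 in R 4.3.3 (TMM scaling, quasi-likelihood test, Benjamini-Hochberg adjustment over all genes tested, threshold 0.05). The scripts were tested on simulated data. CPM is UMIs per 1000000 UMIs of the library's class. Poisson intervals are exact, at 95%, and with the floor of 3 UMIs cover counting error only.

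The text names all 9 members, up to 4 genes of each list with the largest change among those called, and the 3 genes most alike to each member. The members and lists were chosen with earlier results of these data known. The alternatives were RLE scaling, DESeq2 1.42.0, no filter on low counts, 10% mitochondrial or 2000 UMI limits, the replicate number as a block, globin genes left out, libraries left out, doublets kept, and cells picked by a share of at least 5% of UMIs on hepatocyte markers. The high-UMI cluster and the 1-mismatch motif search were chosen after the data had been seen.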

Additional observations from a re-analysis of the deposited data

Results flagged for a closer look

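Among 56 groups of 4 or 5 libraries, 6 held a library whose gap to the nearest other exceeded Dixon's 95% critical value. Chance gives about 1 in 20 where groups are independent and made of like libraries. These groups share libraries and mix genotype labels, so the 6 cannot be judged by that rate.

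Afm in hepatocyte-like cells of P3 library D was 149 CPM, against 26.8 to 47.5 CPM in the other P3 libraries. Cebpa over all passing barcodes of P3 library A was 18.5 CPM, against 4.92 to 6.79 CPM. Gc over all passing barcodes was 56.6 CPM in the E16.5 shared library, against 28.9 to 34.7 CPM in the other E16.5 libraries, and 9.16 CPM in P3 library C, against 17.8 to 19.1 CPM. Zhx2 over all passing barcodes of P3 library C was 0.765 CPM, against 1.15 to 1.21 CPM. In the high-UMI cluster, Zhx2 was 0.725 CPM in P3 library A and 0 in the others, which lies under the floor of 3 UMIs.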

How the results depend on the processing

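The calls of Alb, Afp and Gpc3 as lower at P3 in hepatocyte-like cells held in all 21 alternatives, with log2 fold changes of -1.83 to -0.94, -2.25 to -1.27 and -1.83 to -1.04. The number of genes called there was 4402, and 2721 without P3 libraries A and B. Over all passing barcodes it was 7835, and 5178 without the homozygous libraries. The causes were not tested. By genotype, where 0 genes were called, DESeq2 called 4 in hepatocyte-like cells and 5 over all passing barcodes, fits with no filter on low counts called 46 and 2, and leaving out 1 library gave 0 to 2 and 0 to 1.

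Members whose stage value did not pass could change sign. Without P3 libraries A and B, Afm was 0.28, Zbtb20 -0.083 and Cebpa -0.10, and in the high-UMI cluster Afm was 0.26. Cebpa was -0.010 with no filter on low counts, -0.019 with a 2000 UMI minimum, -0.29 to 0.24 with 1 P3 library left out, and -0.027 without the shared library, -0.0074 without Jag1Ndr/Ndr replicate 2 and up to 0.20 without another E16.5 library. With 1 E16.5 library left out, the genotype value ran from -0.25 to 0.11 for Alb (0.10 without Jag1Ndr/Ndr replicate 1), -0.53 to 0.43 for Afp, -0.043 to 0.18 for Afm (0.15 without Jag1+/+ replicate 1), -0.17 to 0.039 for Gc, -0.32 to 0.38 for Gpc3, -0.26 to 0.14 for Hnf4a and -0.11 to 0.56 for Cebpa.

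The labels do not say that same-numbered E16.5 libraries share a litter or batch, and with 2 Jag1Ndr/Ndr libraries, whose deviations mirror each other, their correlations cannot show whether the numbers pair them. With the replicate number as a block, 4233 genes were called between stages in hepatocyte-like cells, 7621 over all passing barcodes and 0 by genotype in either set. In the block fits the stage value of Cebpa was -0.06, and the genotype values of Afp and Gpc3 were -0.14 and -0.044. Zhx2 over all passing barcodes was -0.47 and no longer passed under the block. Depth limits Zhx2 most, with 16 and 3 UMIs in the class.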
